A study of Rattus norvegicus with 6 samples.

Results

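The 10 genes described here encode the subunits of the 2 protein complexes that start autophagy. The rule took the rows of the gene count table named Ulk1, Ulk2, Rb1cc1, Atg13 and Atg101 for the ULK complex and Becn1, Pik3c3, Pik3r4, Atg14 and Uvrag for the class III PI3 kinase (Beclin) complexes, and all 10 were found among 33508 genes. RNA-seq was done on rat bone marrow mesenchymal stem cells (BMSCs), which the study grew out of the leg bones of male Sprague–Dawley rats aged 2 months. Of the 6 libraries, 3 came from cells carrying a lentivirus that expresses FNDC5, the precursor of the secreted protein irisin (BMSCs-OE-FNDC5), and 3 came from cells carrying a control vector (BMSCs-OE-NC). All 6 were exposed to hypoxia and serum deprivation (H/SD, low oxygen in medium without glucose or serum) for 24 h. No library without H/SD was analysed here, so each comparison is between transduced cells that were all stressed. The labels call the 3 libraries of a group biological replicates without saying whether they came from separate rats, cultures or transductions, so p-values measure the spread between these libraries, which may be technical.

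Autophagy begins when the ULK complex is switched on by energy shortage through AMPK or by release from the nutrient-sensing kinase mTORC1. ULK1 or the related ULK2 is its kinase, FIP200 (the product of Rb1cc1) is its large scaffold, and ATG13 bound to ATG101 links the kinase to the scaffold. The kinase then acts on the class III PI3 kinase complexes, in which the lipid kinase VPS34 (Pik3c3), the scaffold VPS15 (Pik3r4) and Beclin 1 (Becn1) join either ATG14, which directs the complex to sites where autophagosomes form, or UVRAG, which directs it to endosomes. The PI3P lipid that VPS34 makes recruits the proteins that build the membrane. RNA counts do not measure the assembly or the activity of either complex.

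The genes lay on separate loci, by the positions in the deposited table, whose genome build is not named. For the ULK complex these were chr12:51908448-51934702 (Ulk1, ENSRNOG00000037505), chr10:48050803-48129377 (Ulk2, ENSRNOG00000002763), chr5:13033918-13097341 (Rb1cc1, ENSRNOG00000006833), chr3:80581247-80601410 (Atg13, ENSRNOG00000016984) and chr7:142929400-142938554 (Atg101, ENSRNOG00000007756). For the PI3 kinase complexes they were chr10:89209940-89225297 (Becn1, ENSRNOG00000020513), chr18:22964210-23047895 (Pik3c3, ENSRNOG00000017840), chr8:114300257-114350681 (Pik3r4, ENSRNOG00000013669), chr15:24343314-24374753 (Atg14, ENSRNOG00000011873) and chr1:163844818-164101578 (Uvrag, ENSRNOG00000016206). The table placed a snoRNA inside Rb1cc1 and another inside Uvrag, each with 0 counts, and no other gene overlapping a subunit.

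The libraries of BMSCs-OE-NC held 17430287 to 17965722 counts each, and those of BMSCs-OE-FNDC5 held 16640635 to 17229490. Fndc5 itself stood at 0.847 to 1.26 CPM in the control libraries and at 4252 to 4410 CPM under the transgene (CPM is the count scaled to a common library size by TMM, which trims the most changed genes), and reads of the transgene and of the cell's own gene cannot be told apart. The TMM factors differed between the groups, at 1.13 to 1.14 for BMSCs-OE-NC against 0.877 to 0.882 for BMSCs-OE-FNDC5. All 7 mesenchymal markers were present but moved both ways, with Thy1, Cd44 and Eng rising and Pdgfra, Pdgfrb, Nt5e and Itgb1 falling. They summed to 3261 to 3280 CPM in BMSCs-OE-NC libraries and 2096 to 2143 CPM in BMSCs-OE-FNDC5 libraries. Of 6 macrophage and monocyte markers, Cd14 and Cd68 alone reached 10 counts, the list summed to 98.1 to 103 CPM in the former and 198 to 206 CPM in the latter, and Ptprc and Adgre1 were at 0 in every library. No marker of lymphocytes and granulocytes, endothelium, erythroid cells or retina reached 10 counts. The part of these marker differences in the results was not tested, and in such bulk samples fewer cells of a type and less RNA per cell cannot be told apart.

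Of the 10 subunit genes, 8 fell in BMSCs-OE-FNDC5, 1 rose (Atg101) and 1 did not pass the test (Atg13). The falls ran from Atg14, which kept 80.7% of its BMSCs-OE-NC level, to Ulk2, which kept 30.5%. A gene was called at an adjusted p under 0.05 in edgeR's quasi-likelihood test with Benjamini-Hochberg adjustment over the 12104 genes tested, and all 10 were among them. Most of the transcriptome was called in this comparison, with 38.8% of the genes tested falling, 36.9% rising and 75.7% called in either direction. Ulk2 and Rb1cc1 were the 2 subunits that also fell by more than 1 on the log2 scale, as 17.5% of the genes tested did, and no subunit rose past that limit, which 9.84% did. Fold changes set BMSCs-OE-FNDC5 against BMSCs-OE-NC, and their median on the log2 scale was -0.63 over the 10 subunits and -0.04 over all genes tested.

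**Figure D1:**
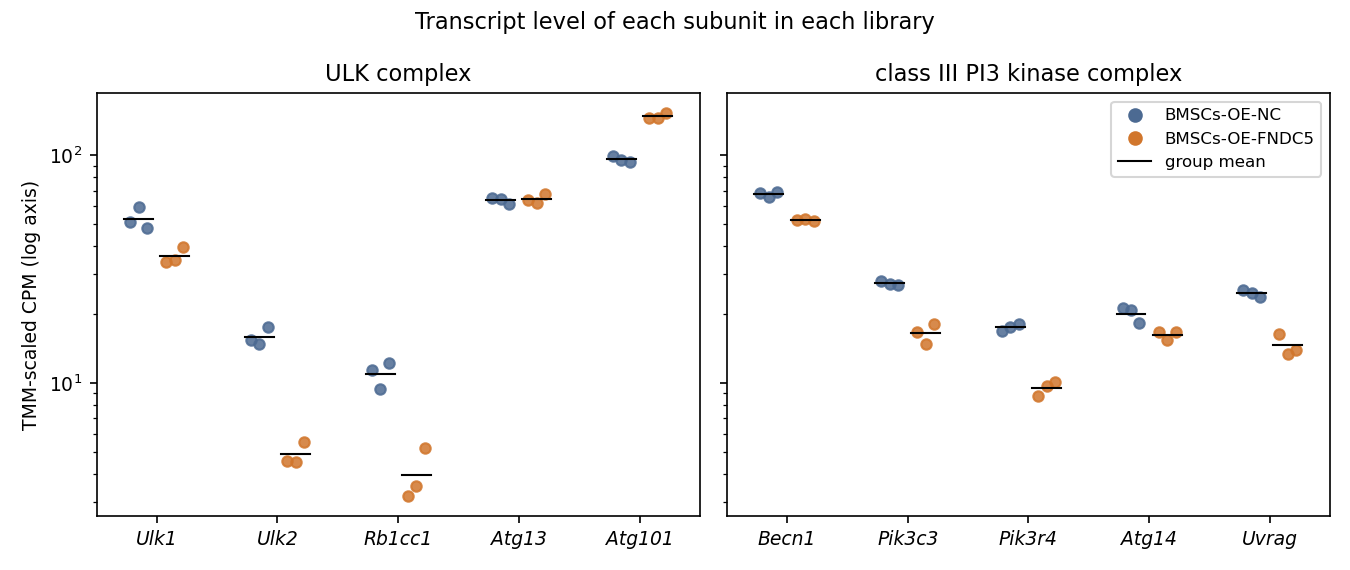
TMM-scaled CPM of each subunit in every library, with BMSCs-OE-NC and BMSCs-OE-FNDC5 side by side, points for libraries and a line for the group mean (n = 3). The 2 groups are apart for every subunit but Atg13, with BMSCs-OE-FNDC5 higher for Atg101 and lower for the other 8.

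Gene length moved with these changes and bears on how they read. Across the 12104 genes, longer genes tended to be lower in BMSCs-OE-FNDC5 (Spearman's rho between the table's gene length and log2 fold change -0.44, a description over genes that share libraries). Among the 10 subunits rho was -0.81, with Atg13 and Atg101 the shortest at 1437 and 1432 bases and Rb1cc1 the longest at 7197 bases. When each library's trend of counts with length was taken out, an alternative chosen after seeing the data, 5 subunits fell (Ulk2, Rb1cc1, Atg13, Pik3c3 and Uvrag), Atg101 rose and 4 were not called, and the median over the 10 was -0.20. In that fit 30.8% of the genes tested fell and 40.7% rose, and the median of all genes was 0.09. Values after this removal are therefore given beside each subunit. What part of the changes belongs to length was not tested.

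**Figure D2:**
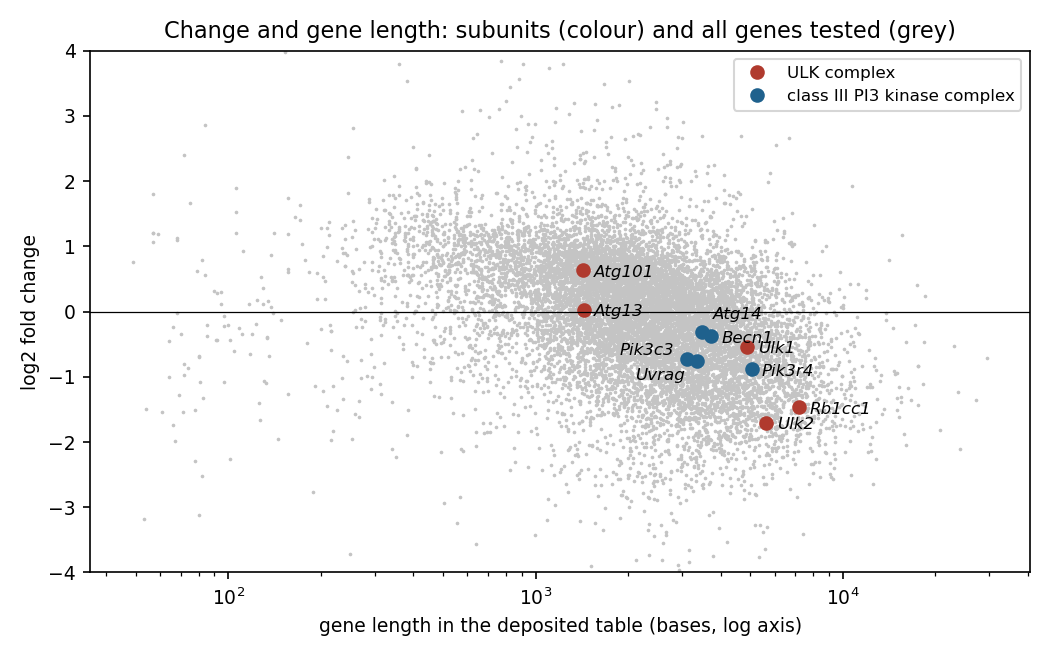
Log2 fold change against gene length in the deposited table (log axis) for the genes tested (grey) and the subunits (coloured by complex), with 37 genes beyond the plotted limit of 4 in either direction not shown. The 2 shortest subunits, Atg13 and Atg101, are the ones at or above 0, and the longest, Rb1cc1 and Ulk2, are the lowest.

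The Ulk2 promoter is where the study placed the transcription factor Sp1, which binds GC boxes, and Sp1 transcript fell with a log2 fold change of -1.48 (SE 0.09, edgeR adjusted p = 6.0e-08) and of -0.54 once the length trend was taken out. Sp1 stood at 30.3 ± 1.29 CPM in BMSCs-OE-NC and at 10.9 ± 0.997 CPM in BMSCs-OE-FNDC5 (SD, n = 3). The study chose it with these libraries, so its direction is not independent evidence, and also reported it lower by qRT-PCR and western blot. The 250 bases before the start of each subunit gene in RefSeq (assembly GRCr8) were therefore searched for the GC box GGGCGG on either strand. Of the 10 genes 8 had a window there, and Becn1 and Rb1cc1 did not. A GC box was in 3 of the 8 (Atg14 with 3, Pik3c3 and Uvrag with 2 each), against 32.4% of 27457 rat genes with a window. Shown here are the windows of the subunit that fell furthest, of the one that rose and of the one with most GC boxes, 5′ to 3′ on the gene's strand, with GC boxes in capitals.
Ulk2, chr10:47029845-47030094, minus strand: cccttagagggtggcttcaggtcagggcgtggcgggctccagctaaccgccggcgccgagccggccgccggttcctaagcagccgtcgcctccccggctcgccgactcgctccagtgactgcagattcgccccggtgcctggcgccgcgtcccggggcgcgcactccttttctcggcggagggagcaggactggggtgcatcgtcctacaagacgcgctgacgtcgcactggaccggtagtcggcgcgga
Atg101, chr7:134276995-134277244, plus strand: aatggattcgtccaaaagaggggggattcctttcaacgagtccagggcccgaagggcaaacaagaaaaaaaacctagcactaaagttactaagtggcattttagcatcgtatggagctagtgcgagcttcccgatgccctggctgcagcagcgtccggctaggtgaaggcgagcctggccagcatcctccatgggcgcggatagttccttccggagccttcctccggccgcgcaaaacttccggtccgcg
Atg14, chr15:23306816-23307065, minus strand: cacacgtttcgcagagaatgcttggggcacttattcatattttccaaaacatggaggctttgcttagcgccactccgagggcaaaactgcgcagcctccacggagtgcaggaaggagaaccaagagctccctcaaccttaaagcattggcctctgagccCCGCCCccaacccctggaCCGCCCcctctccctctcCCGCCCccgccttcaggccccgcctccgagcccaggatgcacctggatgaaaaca
The study's own rat Ulk2 promoter of 1940 bases held 4 matches, 3 of which overlapped each other, and the match nearest its end began 184 bases before it. That match is in capitals in the 40 bases below, and 4 of its bases lie before the RefSeq window printed above, which shares 180 bases with the study's sequence.
Ulk2, study promoter: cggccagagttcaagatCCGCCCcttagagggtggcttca
A match of letters is not a binding site. No GC box was in the windows of Ulk1, Atg13, Atg101 or Pik3r4 either. The Ulk2 site that the study mutated in a luciferase assay lies further upstream, outside the RefSeq windows searched here. In the study's promoter the 4 matches began 645, 641, 637 and 184 bases before its end, all nearer to the end than that site. The study reported lower luciferase activity with that site mutated, and higher Ulk2 mRNA and ULK2 protein in BMSCs overexpressing Sp1 under H/SD. Whether Sp1 acts on any of these genes was not tested here.

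Of the ULK complex, both kinases and the scaffold fell, the adaptor ATG101 rose and its partner ATG13 was not called, with a median log2 fold change of -0.54 over the 5. Ulk1 encodes the main initiating kinase and stood at 50.7, 59.0 and 48.0 CPM in the 3 BMSCs-OE-NC libraries and at 34.0, 34.6 and 39.7 CPM in the 3 BMSCs-OE-FNDC5 libraries. The groups did not overlap, with every BMSCs-OE-FNDC5 library under the lowest BMSCs-OE-NC library. The log2 fold change of Ulk1 was -0.54 (SE 0.08, edgeR adjusted p = 1.2e-04). With the length trend removed it was 0.10 (adjusted p = 0.28), and the fall was no longer called. From its RNA-seq the study reported that Ulk2 was inhibited and Ulk1 was not, and by qRT-PCR only a minor effect on Ulk1. Its screen of autophagy genes asked for an absolute log2 fold change of at least 1, unlike the call used here.

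Ulk2 encodes the second ULK kinase and read 15.4, 14.8 and 17.5 CPM in BMSCs-OE-NC and 4.56, 4.50 and 5.50 CPM in BMSCs-OE-FNDC5. All 3 BMSCs-OE-FNDC5 libraries were far below the BMSCs-OE-NC range, and the log2 fold change of -1.71 (SE 0.13, edgeR adjusted p = 3.9e-07) placed Ulk2 at percentile 5.54 of all genes tested. It fell by 0.97 on the log2 scale (adjusted p = 4.3e-05) with the length trend removed, the largest fall of the 10 under either scaling. The study picked Ulk2 for follow-up from these same libraries, so its direction here is not independent evidence. Beyond these libraries, the study reported lower Ulk2 mRNA by qRT-PCR and lower ULK2 protein by western blot.

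Rb1cc1, which encodes the scaffold FIP200, had 11.3, 9.42 and 12.2 CPM in BMSCs-OE-NC and 3.17, 3.55 and 5.17 CPM in BMSCs-OE-FNDC5. The BMSCs-OE-FNDC5 libraries were again all lower, with the third of them highest. The log2 fold change was -1.47 (SE 0.19, edgeR adjusted p = 3.0e-05) and -0.58 (adjusted p = 0.017) with the length trend removed. Of the 10 subunits Rb1cc1 had the largest standard error.

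Atg13 encodes the regulatory subunit that mTORC1 and AMPK act on, and its levels were 64.9, 64.4 and 61.2 CPM in BMSCs-OE-NC and 63.5, 62.0 and 67.8 CPM in BMSCs-OE-FNDC5. The groups overlapped, with a log2 fold change of 0.02 (SE 0.05, edgeR adjusted p = 0.69). With the length trend removed the value was -0.19 (adjusted p = 0.0039), so the call on Atg13 depends on the treatment of length. Atg101 encodes the partner that stabilises ATG13 and stood at 99.4, 95.3 and 93.0 CPM in BMSCs-OE-NC and at 146, 146 and 154 CPM in BMSCs-OE-FNDC5. Every BMSCs-OE-FNDC5 library was above every BMSCs-OE-NC library, and the log2 fold change was 0.63 (SE 0.04, edgeR adjusted p = 5.2e-08). It stayed a rise with the length trend removed, at 0.42 (adjusted p = 1.4e-06), and with scaling by library size alone, at 0.26.

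All 5 class III PI3 kinase subunits fell, with a median log2 fold change of -0.73. Becn1 encodes Beclin 1, shared by both forms of the complex, and read 68.4, 65.7 and 68.9 CPM in BMSCs-OE-NC and 51.9, 52.6 and 51.6 CPM in BMSCs-OE-FNDC5. The groups did not overlap and the BMSCs-OE-FNDC5 libraries lay close together. The log2 fold change was -0.38 (SE 0.04, edgeR adjusted p = 6.9e-06), and 0.08 (adjusted p = 0.099) with the length trend removed, where Becn1 was not called.

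Pik3c3, the gene of the lipid kinase VPS34 itself, had 28.0, 27.2 and 27.0 CPM in BMSCs-OE-NC and 16.7, 14.9 and 18.1 CPM in BMSCs-OE-FNDC5. The BMSCs-OE-FNDC5 libraries were all lower, the log2 fold change was -0.73 (SE 0.09, edgeR adjusted p = 1.7e-05), and the fall was kept with the length trend removed (-0.37, adjusted p = 0.0028). Pik3r4 encodes VPS15, the pseudokinase scaffold of VPS34, and had 16.8, 17.7 and 18.2 CPM in BMSCs-OE-NC and 8.80, 9.68 and 10.1 CPM in BMSCs-OE-FNDC5. Again no library of one group reached the other, with a log2 fold change of -0.89 (SE 0.10, edgeR adjusted p = 1.1e-05), the largest fall of the 5 by TMM. It was -0.22 (adjusted p = 0.069) and not called with the length trend removed.

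Atg14 and Uvrag encode the subunits that define the autophagy form and the endosomal form of the complex. Atg14 stood at 21.4, 20.9 and 18.3 CPM in BMSCs-OE-NC and at 16.7, 15.5 and 16.7 CPM in BMSCs-OE-FNDC5. The groups did not overlap but were close, with a log2 fold change of -0.31 (SE 0.09, edgeR adjusted p = 0.011), and 0.12 (adjusted p = 0.29) with the length trend removed. Uvrag read 25.6, 24.8 and 23.9 CPM in BMSCs-OE-NC and 16.5, 13.4 and 14.0 CPM in BMSCs-OE-FNDC5. The groups were clearly apart, and the log2 fold change was -0.76 (SE 0.10, edgeR adjusted p = 2.4e-05), and -0.36 (adjusted p = 0.0066) once the length trend was taken out. Of the 10 subunits 9 had groups that did not overlap in CPM, 1 of them higher in BMSCs-OE-FNDC5 and 8 lower. The same held for 78.3% of the genes tested, with 37.9% higher and 40.4% lower.

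**Figure D3:**
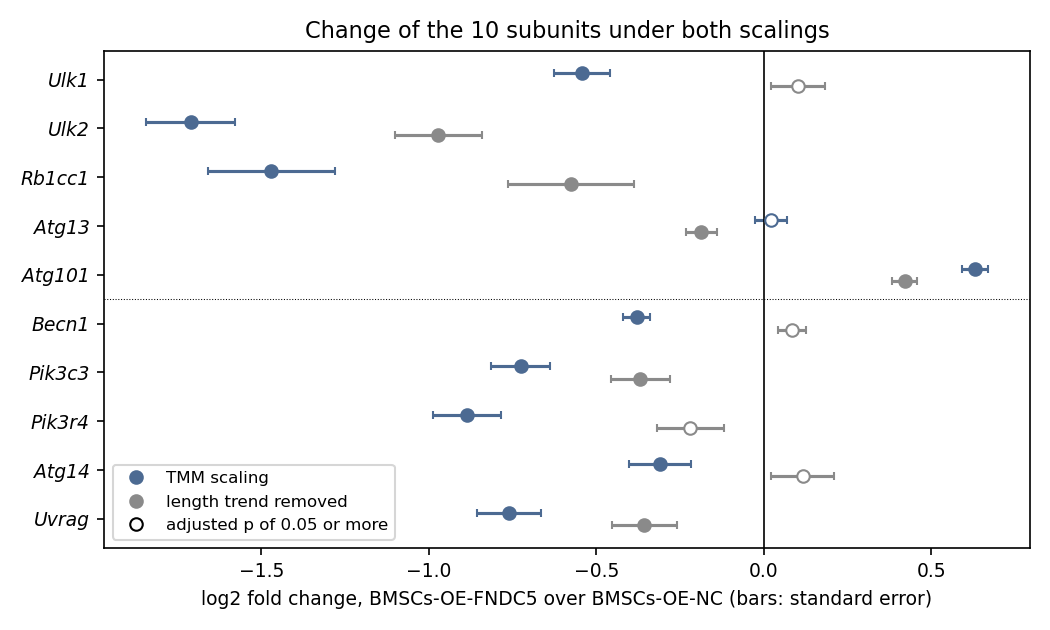
Log2 fold change of each subunit with its standard error, by TMM scaling and with the length trend removed, with open points for an adjusted p of 0.05 or more. Removal raises 8 of the 10 points and lowers Atg13 and Atg101, with Ulk2 lowest and Atg101 highest under both scalings.

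Subunits within a complex were then compared with each other as the log2 ratio of their counts in the same library, which library scaling does not change. An exact two-sided permutation test of 3 libraries against 3 cannot go below p = 0.1, which is 0.133 after Benjamini-Hochberg adjustment over the 20 pairs. In the ULK complex 9 of 10 pairs did not overlap between groups, and in the PI3 kinase complexes 6 of 10 did not. Each of these pairs had an exact permutation p of 0.1. Pairs within a complex share genes and are not independent, and the share over all gene pairs was not computed. Of the single genes tested, 78.3% did not overlap in CPM. The largest difference in the ULK complex was that of Ulk2 over Atg101, at -2.35 (SE 0.12). Among the PI3 kinase subunits the largest was that of Pik3r4 over Atg14, at -0.58 (SE 0.12). With the length trend removed these 2 differences were -1.40 and -0.34. Ulk2 over Atg101 was still the largest of its complex, but Pik3c3 over Atg14, at -0.49, was then the largest among the PI3 kinase subunits.

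Atg13 and Atg101, whose proteins bind directly, are nearly equal in length. The log2 ratio of Atg13 to Atg101 was -0.60 ± 0.03 in BMSCs-OE-NC and -1.20 ± 0.03 in BMSCs-OE-FNDC5 (SD, n = 3), a difference of -0.61 (SE 0.02, exact permutation p = 0.1) that was the same at -0.61 with the length trend removed. Ulk1 over Ulk2, the alternative kinases, went from 1.72 ± 0.27 to 2.90 ± 0.05, a difference of 1.17 (SE 0.16, exact permutation p = 0.1) and of 1.08 with the length trend removed. Ulk2 over Rb1cc1, the 2 longest genes, differed by -0.22 with overlapping groups (SE 0.14, exact permutation p = 0.3), and by -0.38 with groups that did not overlap once the length trend was removed. Ulk1 over Atg13 turned from -0.56 to 0.29 when the length trend was removed, the one ULK pair to change sign.

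Among the PI3 kinase subunits 4 pairs overlapped between the groups. Pik3c3 over Pik3r4 differed by 0.16 (exact permutation p = 0.3), Pik3c3 over Uvrag by 0.04 (p = 0.8, exact permutation), Pik3r4 over Uvrag by -0.12 (p = 0.7, exact permutation) and Becn1 over Atg14 by -0.07 (p = 0.5, exact permutation). Becn1 and Atg14 held up relative to the other 3, with Becn1 over Pik3c3 higher by 0.35 (SE 0.09), Becn1 over Pik3r4 by 0.51 (SE 0.07), Becn1 over Uvrag by 0.39 (SE 0.10) and Atg14 over Uvrag by 0.46 (SE 0.08), each at the smallest exact permutation p of 0.1. These 4 stayed positive at 0.46, 0.31, 0.45 and 0.48 with the length trend removed, and 3 of the 10 pairs changed sign.

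The alternative subunits were also expressed as shares of their summed FPKM, which adjusts for gene length. Ulk2 made up 20.9, 17.9 and 24.1% of Ulk1 plus Ulk2 in BMSCs-OE-NC and 10.4, 10.1 and 10.7% in BMSCs-OE-FNDC5. Its share went from 20.9% ± 3.10 to 10.4% ± 0.292 (SD, n = 3), a difference of -10.5 percentage points (exact permutation p = 0.1). Atg14 made up 44.5, 44.7 and 42.4% of Atg14 plus Uvrag in BMSCs-OE-NC and 49.3, 52.5 and 53.4% in BMSCs-OE-FNDC5, a difference of 7.91 percentage points (exact permutation p = 0.1). No library of one group reached the other for either share, so Ulk2 was a smaller part of the kinase transcripts and Atg14 a larger part of the alternative Beclin partners.

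**Figure D4:**
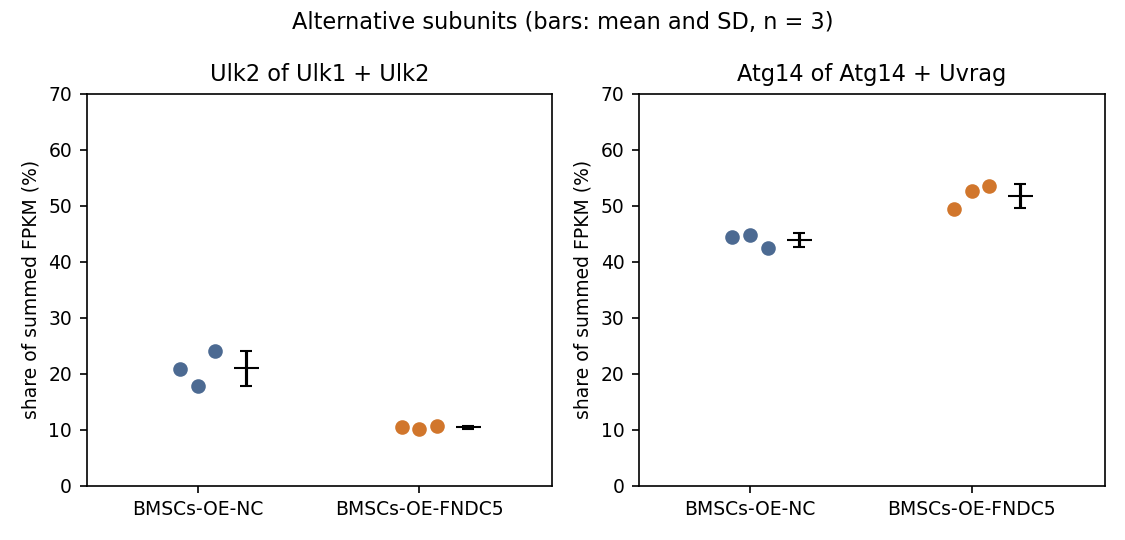
Share of the summed FPKM held by Ulk2 of Ulk1 + Ulk2 (left) and by Atg14 of Atg14 + Uvrag (right) in each library, with bars for the mean and SD (n = 3). The Ulk2 share is near 20.9% in BMSCs-OE-NC and near 10.4% in BMSCs-OE-FNDC5, and the Atg14 share is higher in all 3 BMSCs-OE-FNDC5 libraries.

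Per length, the subunits of the ULK complex were far from equal. In FPKM, Atg101 was highest at 65.8 ± 2.37 in BMSCs-OE-NC and 104 ± 3.34 in BMSCs-OE-FNDC5 (SD, n = 3), followed by Atg13 at 43.4 ± 1.49 and 44.9 ± 2.14, Ulk1 at 10.6 ± 1.17 and 7.39 ± 0.646, Ulk2 at 2.78 ± 0.241 and 0.862 ± 0.0998, and Rb1cc1 at 1.502 ± 0.193 and 0.551 ± 0.148. No neighbours in that order overlapped in either group. The ratio of the highest to the lowest mean went from 43.8 to 188. It sets Atg101, the shortest subunit gene, against Rb1cc1, the longest. In counts, the log2 ratio of Rb1cc1 to Atg101 differed between the groups by -2.13, and by -1.02 with the length trend removed. The order rests on the lengths in the table, in which Atg13 and Atg101 are short.

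The PI3 kinase subunits lay closer together, with a highest to lowest ratio of 5.23 in BMSCs-OE-NC and 7.43 in BMSCs-OE-FNDC5. Becn1 was highest at 17.9 ± 0.422 and 14.0 ± 0.132 FPKM, followed by Pik3c3 at 8.68 ± 0.171 and 5.34 ± 0.523 FPKM, and Pik3r4 was lowest at 3.43 ± 0.129 and 1.89 ± 0.131 FPKM. Uvrag, at 7.27 ± 0.273 FPKM, was above Atg14, at 5.68 ± 0.481 FPKM, in every BMSCs-OE-NC library. In BMSCs-OE-FNDC5 their means were 4.37 ± 0.479 and 4.67 ± 0.198 FPKM and their libraries overlapped.

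Another 65 genes of autophagy initiation, in 4 lists chosen with earlier results of these data known, show what surrounded the subunits. Of these 53 were tested, with 14 rising, 28 falling and 11 not called, and 6 fell past a log2 fold change of 1 while none rose past it. Their median log2 fold change was -0.21, against -0.63 for the subunits. With the length trend removed the counts turned to 27 rising and 14 falling with a median of 0.22. All genes moved the same way, to the 40.7% rising and 30.8% falling given above.

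Of 18 tested genes for energy and nutrient inputs to ULK, 7 rose and 7 fell by TMM, with a median of 0.09. With the length trend removed 10 rose and 4 fell, with a median of 0.30. Tsc1, whose product with TSC2 restrains mTORC1, went from 16.5 ± 1.53 to 6.66 ± 0.446 CPM (log2 fold change -1.30, edgeR adjusted p = 1.7e-06). Prkaa1, a catalytic subunit of AMPK, fell by 0.90 on the log2 scale (adjusted p = 2.5e-04), but was -0.29 and not called (adjusted p = 0.11) with the length trend removed. Akt1s1, which encodes the mTORC1 inhibitor PRAS40, rose by 0.90 (adjusted p = 1.1e-09), and Camkk2 and Stk11, kinases upstream of AMPK, rose by 0.60 and 0.36. Mtor fell by 0.61 (adjusted p = 2.7e-05) and turned to 0.39 with the length trend removed.

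Among partners and regulators of the 2 complexes 15 were tested, of which 11 fell and 2 rose (median -0.60) by TMM. With the length trend removed 6 fell and 6 rose, with a median of 0.06. Smcr8, a partner of C9orf72 in a complex that acts with ULK1, fell by 1.57 (adjusted p = 6.4e-07), and Tab2, a binding partner of Beclin 1, fell by 1.18 (adjusted p = 7.9e-08). Hmgb1, whose product binds Beclin 1, fell by 1.16, but its row has the same span as its length of 2221 bases, as for a gene with no introns, and reads of near-identical copies make it uncertain. Rubcn, which encodes the VPS34 inhibitor Rubicon, rose by 0.22 (adjusted p = 0.023), and Bcl2l1, a Beclin 1 binding partner, by 0.11 (adjusted p = 0.043, with overlapping groups), and both turned negative with scaling by library size alone. The 2 rises of this list became 0 without BMSCs-OE-NC replicate 2, and 1 without BMSCs-OE-NC replicate 1 or 3 or BMSCs-OE-FNDC5 replicate 1 or 2.

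The 16 tested genes for PI3P readers, phosphatases and membrane supply gave 5 rises and 8 falls (median -0.04). The rises became 2 without BMSCs-OE-NC replicate 3, and 3 without BMSCs-OE-NC replicate 1 or 2 or BMSCs-OE-FNDC5 replicate 1. With the length trend removed 10 genes of this list rose and 3 fell, with a median of 0.26. Pikfyve, the kinase that converts PI3P, fell by 1.54 (adjusted p = 6.1e-07). Atg2b, a lipid transfer protein, fell by 0.82 and Tmem41b, a membrane lipid scramblase, by 0.47. With the length trend removed Pikfyve was at -0.50 and Tmem41b at -0.32, while Atg2b turned to 0.24 and was not called (edgeR adjusted p = 0.064). The PI3P readers Wdr45 and Wipi2 rose by 0.32 and 0.31, and Mtmr14, a PI3P phosphatase, by 0.21, which all turned slightly negative with scaling by library size alone. Of the other ULK family and class II PI3 kinases 4 were tested and 2 fell, with Pik3c2a at 8.02 ± 0.219 and 1.99 ± 0.960 CPM (log2 fold change -2.00, edgeR adjusted p = 7.1e-05). With the length trend removed 1 of the 4 fell and 1 rose. Stk36, a distant relative of ULK kinases, fell by 0.49 (adjusted p = 0.035), a call kept in 5 of 17 alternatives and, when a library was left out, kept without BMSCs-OE-FNDC5 replicate 3 alone. Ulk3 and Ulk4 were not called at 0.10 (adjusted p = 0.56) and 0.27 (adjusted p = 0.30).

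**Figure D5:**
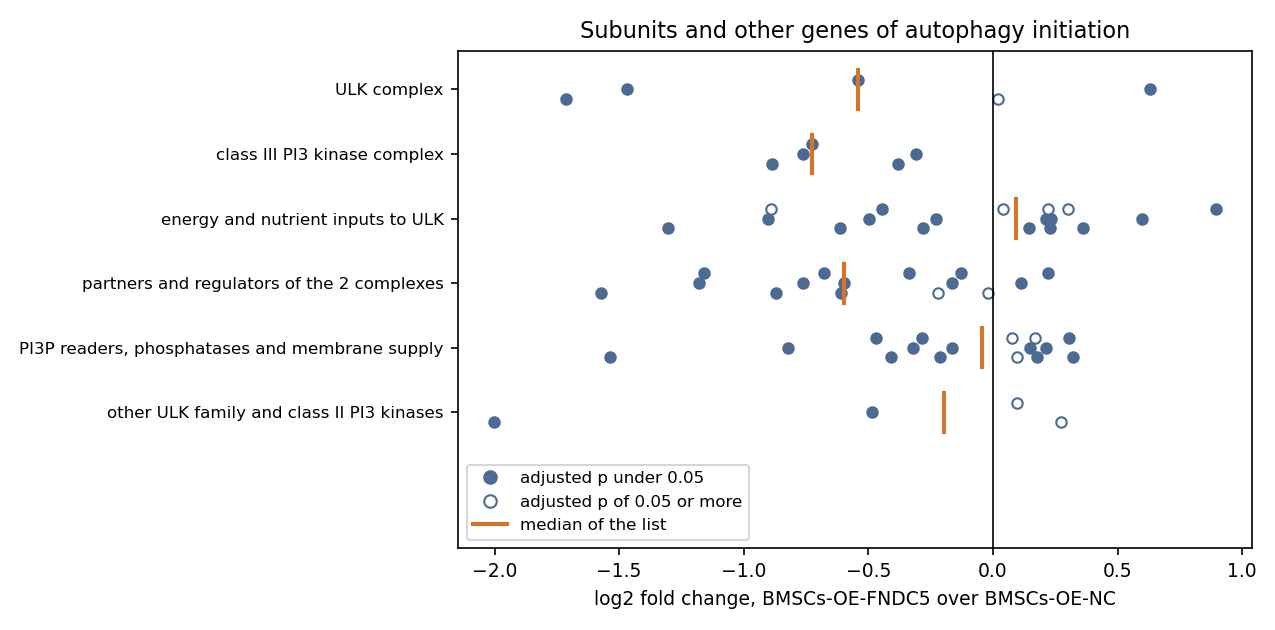
Log2 fold change of the tested genes of the 2 complexes and of 4 other lists of autophagy initiation, with filled points for an adjusted p under 0.05 and a bar at each list's median. By TMM scaling, the medians of the ULK and PI3 kinase subunits and of their partners, at -0.54, -0.73 and -0.60, are the lowest of the 6 lists. With the length trend removed, which is not drawn, these 3 medians were -0.19, -0.22 and 0.06.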

How the data were processed

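Rat BMSCs-OE-NC and BMSCs-OE-FNDC5 (3 libraries each, grouped by the labels) were profiled after H/SD by RNA-seq. The authors deposited whole-number counts per gene and FPKM values. The submitters' processing notes list HISAT2 2.1.0, Bowtie2 2.2.3 and TopHat2, the counter HTSeq 0.6.0, CASAVA and DESeq2, with neither step nor strand setting. They also name mm10 and retinas, whereas the table holds rat Ensembl identifiers and retina markers did not reach 10 counts.

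The counts were tested with edgeR 4.0.16 in R 4.3.3 (filterByExpr, minimum count 10, minimum total 15, TMM, glmQLFit and glmQLFTest, condition only). Benjamini-Hochberg adjustment covered the 12104 genes tested. CPM values are scaled by TMM. Exact permutation tests used SciPy 1.17.1 in Python 3.11.15, and figures matplotlib 3.10.9. The length-trend fit used a lowess offset per library (span 0.3) and was chosen after seeing the data. Members and lists were chosen with earlier results of these data known. The genes named are the 10 subunits, Fndc5, Sp1 and, in each other list, the 3 largest rises and falls among called genes. Ulk3 and Ulk4 were named after their values were seen. Of the listed genes, Mcl1 was not found by symbol in the table. Libraries of a group differed by more than sampling noise. On simulated counts with 200 of 11941 genes changed, edgeR recovered 56.7% of 1.5-fold, 76.1% of 2-fold and 100% of 4-fold changes, with 6.06% of calls false.

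Alternatives were DESeq2 1.42.0, DESeq2 size factors, upper-quartile and library-size scaling, other filters, limma 3.58.1 on log2(FPKM + 1) and log2(FPKM + 0.1), a replicate block and leaving out each library. RefSeq promoter windows (GRCr8) were matched by gene symbol. The columns of the authors' annotation were used for names and positions only, and reads were not reprocessed.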

Additional observations from a re-analysis of the deposited data

How the results depend on the processing

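Ulk2, Rb1cc1, Atg101, Pik3c3 and Uvrag kept direction and call in 17 of 17 alternatives. Removing the length trend left 2 PI3 kinase subunits that fell and 0 subunits that fell past both thresholds, and gave log2 fold changes of 0.10 for Ulk1, -0.19 for Atg13, 0.084 for Becn1, 0.12 for Atg14, 0.39 for Mtor, 0.24 for Atg2b and 0.18 for Stk36. Of the other initiation genes 27 then rose and 14 fell. With library size alone the median of all genes was -0.41, with 5 subunits past both thresholds, 1 other initiation gene and 2659 of all genes that rose, and -0.35 for Atg13, -0.0093 for Stk11, -0.15 for Rubcn, -0.26 for Bcl2l1, -0.063 for Wipi2, -0.048 for Wdr45 and -0.16 for Mtmr14. With upper-quartile scaling that median was -0.14, with 7 other initiation genes that rose. Limma on log2(FPKM + 1), with or without a filter, gave 1 subunit past both thresholds. Leaving out 1 library gave 9 to 13 other initiation genes that rose, with 9 when each of the 3 BMSCs-OE-NC libraries was left out in turn, and changed no subunit count. The cause of these changes was not tested, beyond fewer samples in the last. Over the named genes, 481 alternative values kept direction and call, 32 kept direction only and 14 reversed. Replicate numbers did not pair the libraries (correlations of deviations 0.02, -0.01 and -0.01 for the same number), and with the replicate block 3 ULK and 5 PI3 kinase subunits fell and 1 rose, with 14 other initiation genes rising and 26 falling. Ratios and shares in 3 pairs cannot go below p = 0.25 in an exact sign-flip test. In the simulation with 3 libraries a group, 76.1% of 2-fold and 56.7% of 1.5-fold changes were recovered, so changes of that size can be missed. It changed 200 of 11941 genes, whereas 75.7% of the genes tested were called in these data, so its rates may not carry over.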
